A study of Mus musculus with 4 samples.

Results

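The 9 genes described here encode the enzymes that make and break down polyamines and the proteins that control the first of these enzymes. They were chosen by gene symbol, and all 9 were found among the 45777 genes of the deposited joint table. They comprise 4 synthesis enzymes (Odc1, Amd1, Srm and Sms), 2 breakdown enzymes (Sat1 and Smox), 2 antizymes (Oaz1 and Oaz2) and the antizyme inhibitor Azin1. RNA was sequenced from myotubes of C2C12, a single established line of mouse myoblasts whose cells fuse in low serum, here DMEM with 2% horse serum. Of the 4 libraries of poly(A) RNA, 1 came from each of 4 groups: clenbuterol, the control for clenbuterol, EPS and the control for EPS. Clenbuterol is a drug that stimulates beta2-adrenergic receptors, and EPS is taken to mean electrical pulse stimulation, which the labels abbreviate without explanation. The study set these side by side as a pair of exercise models in culture. The treatment field of all 4 records, controls included, reads clenbuterol at 30 ng/ml, so the groups were taken from the record titles. Treatment times and pulse settings were not stated in the sources used here.

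Within the EPS pair, titles and data names disagree: the data of the record titled as the control are named for EPS, and the reverse holds for the record titled EPS. The libraries are therefore named by title below, as titled EPS and titled EPS control. All directions given for that pair would be opposite under the data names. The measured values were not used to settle the matter.

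Polyamines (putrescine, spermidine and spermine) are small, positively charged molecules that bind nucleic acids and are needed for cell growth. Ornithine decarboxylase makes putrescine, and S-adenosylmethionine decarboxylase supplies the aminopropyl groups that turn it into spermidine and spermine. Antizymes bind ornithine decarboxylase and send it to the proteasome, and antizyme inhibitor competes for that binding. Much of the control acts on translation and protein stability, which RNA levels do not show. In rodent skeletal muscle, androgens and beta2-agonists are known to act on polyamine synthesis, and in mouse muscle Smox is known for its loss during atrophy.

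The antizymes carry a regulatory sequence that lies in the RNA itself. The ribosome must shift frame at a stop codon to make full-length antizyme, and polyamines raise the frequency of this shift, so that antizyme output depends on more than RNA amount. The site is shown for both antizymes because their RNA levels are the subject below. It was read from GENCODE M21 transcripts on GRCm38, and capitals mark the shift site with the stop codon TGA within it. In Oaz1 the capital letters lie at chr10:80828292-80828298 on the plus strand, and in Oaz2 at chr9:65686269-65686275 on the plus strand. Without gaps, 66 of the 90 bases shown were identical between the genes (73.3%).
Oaz1: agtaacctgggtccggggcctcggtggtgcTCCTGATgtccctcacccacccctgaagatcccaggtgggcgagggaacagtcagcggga
Oaz2: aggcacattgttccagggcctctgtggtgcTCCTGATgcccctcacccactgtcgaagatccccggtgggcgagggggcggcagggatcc

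Promoters are shown for Smox and Odc1, which had the highest clenbuterol ratios of the 9 genes, and for Amd1, which carries a short cyclic AMP response element and had a ratio near 1. Sequences are the 250 bases before the start site in RefSeq (GRCm38.p6), at chr2:131491612-131491861 (plus strand) for Smox, chr12:17544623-17544872 (plus strand) for Odc1 and chr10:40302189-40302438 (minus strand) for Amd1. These starts are those of the RefSeq table and can lie downstream of the gene start in the deposited annotation, so that the last 65 bases of the Odc1 window and the last 4 of the Smox window fall inside the gene as listed there. Capitals mark matches to the motifs searched on both strands.
Smox: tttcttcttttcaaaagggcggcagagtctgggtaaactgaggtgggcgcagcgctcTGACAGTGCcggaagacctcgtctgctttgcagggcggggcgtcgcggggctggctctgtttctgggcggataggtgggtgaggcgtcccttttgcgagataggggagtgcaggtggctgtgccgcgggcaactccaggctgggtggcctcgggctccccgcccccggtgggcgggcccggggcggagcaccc
Odc1: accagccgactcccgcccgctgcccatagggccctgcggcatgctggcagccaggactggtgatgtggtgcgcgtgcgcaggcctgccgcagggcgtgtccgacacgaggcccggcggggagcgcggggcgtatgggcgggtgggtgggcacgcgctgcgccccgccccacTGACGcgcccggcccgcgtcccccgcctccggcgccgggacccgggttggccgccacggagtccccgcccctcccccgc
Amd1: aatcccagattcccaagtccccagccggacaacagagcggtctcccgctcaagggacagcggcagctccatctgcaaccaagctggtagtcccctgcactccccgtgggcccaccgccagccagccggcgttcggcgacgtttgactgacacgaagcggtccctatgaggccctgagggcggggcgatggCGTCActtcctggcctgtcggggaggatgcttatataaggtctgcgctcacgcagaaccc

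The promoter table matched 7 of the 9 genes, all except Srm and Azin1, with 8 windows because Sms has 2. The motifs searched were the full cyclic AMP response element TGACGTCA, its short form TGACG, the E-box CACGTG bound by MYC, the TATA box TATAAA and the antioxidant response element core TGACNNNGC. The short element lies within the full element, and the antioxidant core can overlap the short element. Odc1 held 1 short element, 79 bases before the start, and Amd1 held 1 on the opposite strand, 60 bases before it. Oaz1 held 2 short elements, 221 and 13 bases before the start, the nearer overlapping an antioxidant core. Smox held an antioxidant core 193 bases before the start and none of the other motifs. An E-box stood 196 bases before the more distal start of Sms, and no motif matched in Sat1, in Oaz2 or in the other Sms window. No window of these genes held the full element or the letters TATAAA, the only form of the TATA box searched. The Amd1 window holds the letters tatataag near its start site, which that search does not match. Over 32851 windows of the same length, 1.55% held the full element, 17.8% the short element, 6.02% the E-box, 12.4% the TATA box and 10.2% the antioxidant core. These matches describe letters and show no binding.

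Totals of estimated counts lay between 32640884 and 35597074 per library, and 13412 to 13489 genes had a TPM, a length-normalised level, of at least 1. As a check of the treatment, 1 library against 1, Nr4a1, an immediate early receptor gene, stood at 629 TPM with clenbuterol, against 97.4 in its control. Pde4b, a cyclic AMP phosphodiesterase, stood at 23.6 TPM with clenbuterol, against 3.19 in its control. In the EPS pair both were lower by title, Nr4a1 at 12.8 TPM in titled EPS, against 19.7 TPM in titled EPS control, and Pde4b at 4.72 TPM in titled EPS, against 8.85 TPM in titled EPS control. All 12 myotube markers reached 1 TPM in every library, and their summed TPM was 31313 with clenbuterol and 31111 in its control, and 21018 in titled EPS and 25262 in titled EPS control. Of 6 genes of undifferentiated or dividing myoblasts, 5 reached 1 TPM in every library, with a summed TPM of 256, 185, 246 and 221 in the same order. Id3 alone stood at 116, 35.9, 17.3 and 13.6 TPM in that order, and the other 5 summed to 140.3, 149, 229 and 207 TPM. All 4 adipocyte markers and 3 of 4 leukocyte markers, Ptprc among them, stood at 0, and the 4 endothelial markers summed to 0.440 to 0.750 TPM. Of the neuronal list only Tubb3 reached 1 TPM in any library, and it stood at 86.5 to 127 TPM. The epithelial list summed to 0.517 to 2.19 TPM. In bulk RNA, a change in the number of cells of a type and a change in RNA per cell cannot be told apart. With 1 library per group there is no replicate and no test. Folds are ratios of CPM, counts over library totals scaled by TMM factors, and the interval after each is a 95% Clopper-Pearson interval that covers counting error only. The line for a difference was 1.5-fold in TPM plus 1, in either direction. All 9 genes passed the filter of 1 TPM in at least 1 library of each pair, the lowest value of any being 16.4 TPM.

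Levels differed far more between genes than between libraries. Oaz1 was the most abundant of the 9 RNAs at 624 to 676 TPM and took 48.5% to 49.6% of their summed TPM. Below it came Odc1 (152 to 192 TPM), Sat1 (114 to 151), Azin1 (110 to 117) and Oaz2 (101 to 112), in this order in each library. The ranges of Sat1 and Azin1 overlapped, as did those of Azin1 and Oaz2, and Odc1 exceeded Sat1 by little in titled EPS. Amd1 (44.9 to 47.2 TPM), Srm (34.5 to 59.2) and Sms (32.2 to 41.5) changed places between libraries: Srm led in the EPS pair and came last of the 3 in the clenbuterol pair. Smox was the lowest in each library at 16.4 to 24.5 TPM. From lowest to highest library the genes spanned 1.05-fold (Amd1) to 1.72-fold (Srm) in TPM, with Smox at 1.49-fold, Sat1 at 1.33-fold and Azin1 at 1.07-fold.

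**Figure D1:**
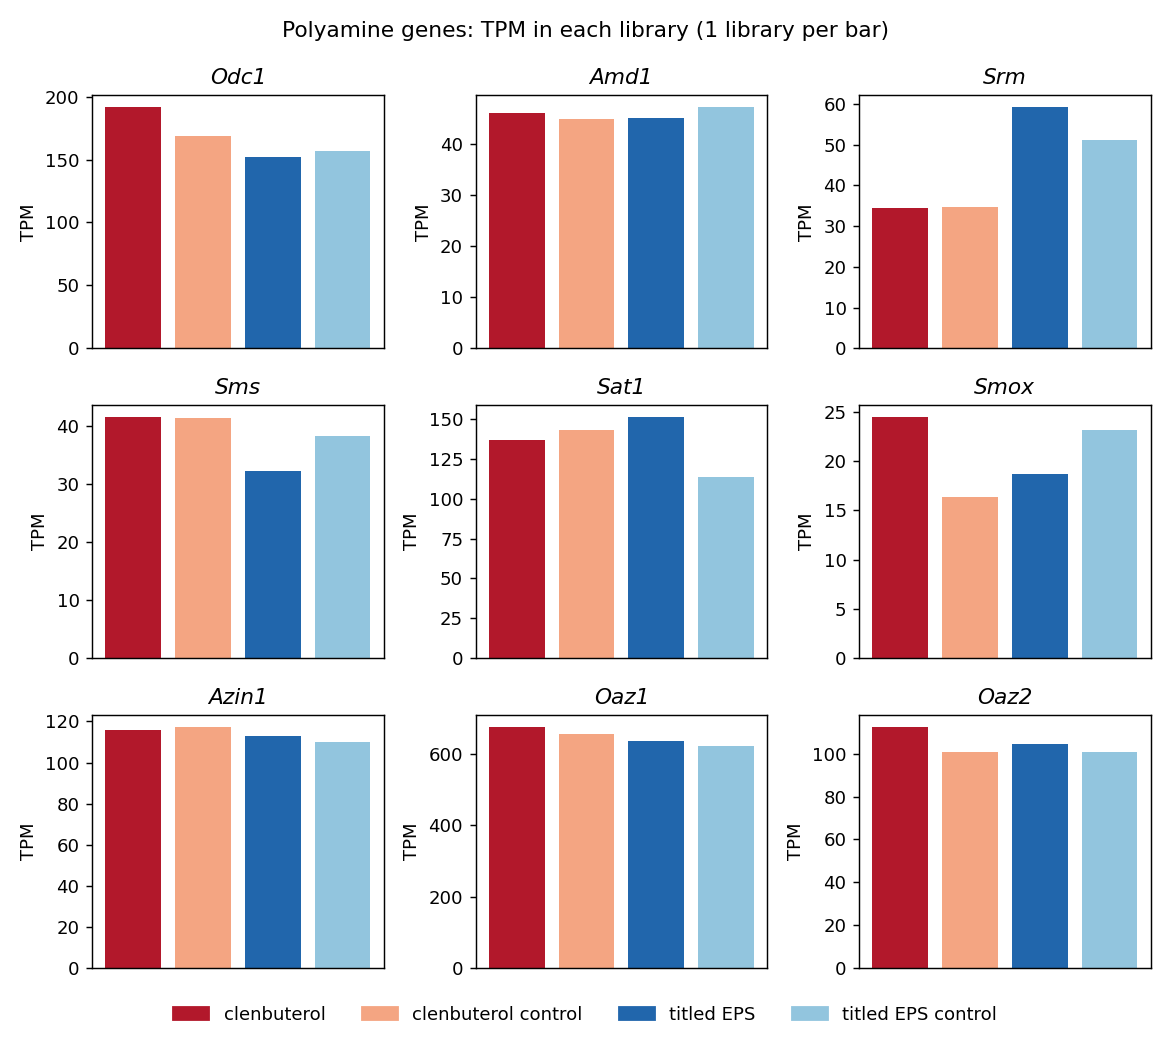
Bars give the TPM of each of the 9 genes in the 4 libraries, 1 bar per library, on axes that start at 0 and differ between panels. Srm stands at 59.2 and 51.1 TPM in the EPS pair but at 34.5 and 34.7 TPM in the clenbuterol pair, while Amd1, Azin1 and Oaz1 are nearly level.

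Among the synthesis enzymes, Odc1 (gene ID 18263, chr12:17544808-17551502 on mm10, plus strand), ornithine decarboxylase itself, was modestly higher with clenbuterol. It stood at 192 TPM (7006 counts) with clenbuterol, against 169 TPM (6275 counts) in its control. In titled EPS it stood at 152 TPM (6073 counts), against 157 TPM (5512 counts) in titled EPS control. The clenbuterol library was the highest and both EPS libraries were lower than either library of the clenbuterol pair. The fold was 1.15 (1.11 to 1.19) for clenbuterol and 0.994 (0.959 to 1.03) for titled EPS, below the 1.5-fold line in both. A predicted gene on the same strand that overlaps Odc1, LOC115488064, reached 0.891 to 3.75 TPM.

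Amd1 (gene ID 11702, chr10:40287458-40302188 on mm10, minus strand), S-adenosylmethionine decarboxylase, was the steadiest of the 9 genes. It stood at 46.1 TPM with clenbuterol, against 44.9 TPM in its control, and at 45.1 TPM in titled EPS, against 47.2 TPM in titled EPS control. The intervals of both folds included 1, at 1.04 (0.979 to 1.11) for clenbuterol and 0.980 (0.923 to 1.04) for titled EPS. Reads of Amd1 may be shared with its near copy Amd2, whose transcript was identical at 3188 of 3202 aligned bases (99.6%) and which stood at 7.67 to 8.77 TPM. Summed with Amd2 and the pseudogenes Amd-ps3 and Amd-ps4, the folds were 1.05 (0.998 to 1.11) and 0.979 (0.929 to 1.03).

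Srm (gene ID 20810, chr4:148591513-148594619 on mm10, plus strand) and Sms (gene ID 20603, chrX:157443851-157492287 on mm10, minus strand), the spermidine and spermine synthases, hardly differed with clenbuterol. Srm stood at 34.5 TPM with clenbuterol (657 counts), against 34.7 TPM in its control (671 counts), and at 59.2 TPM in titled EPS (1228 counts), against 51.1 TPM in titled EPS control (933 counts). Sms stood at 41.5 TPM with clenbuterol, against 41.3 TPM in its control, and at 32.2 TPM in titled EPS, against 38.2 TPM in titled EPS control. The synthases thus lay on opposite sides of 1 in titled EPS, with folds of 1.19 (1.09 to 1.29) for Srm and 0.867 (0.814 to 0.925) for Sms, while the clenbuterol folds were 1.01 (0.904 to 1.12) and 1.02 (0.960 to 1.08). Srm over Sms in TPM was 0.832 with clenbuterol and 0.840 in its control, and 1.84 in titled EPS and 1.34 in titled EPS control. Sms shares 1101 aligned bases without a mismatch with the pseudogene Sms-ps, which stood at 3.11 to 4.88 TPM, and summing the pair left folds of 1.00 (0.948 to 1.06) and 0.859 (0.807 to 0.915).

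Of the breakdown enzymes, Smox (gene ID 228608, chr2:131491858-131525183 on mm10, plus strand), spermine oxidase, had the highest clenbuterol ratio of the 9 genes. It stood at 24.5 TPM (781 counts) with clenbuterol, against 16.4 TPM (519 counts) in its control. It stood at 18.7 TPM (625 counts) in titled EPS, against 23.1 TPM (665 counts) in titled EPS control. In TPM the control for clenbuterol was thus the lowest of the 4 libraries, and titled EPS control lay close to the clenbuterol library. In CPM Smox stood at 24.0 with clenbuterol, 20.4 in titled EPS control, 17.3 in titled EPS and 15.5 in the control for clenbuterol. The fold was 1.55 (1.38 to 1.73) for clenbuterol and 0.848 (0.759 to 0.948) for titled EPS. In TPM plus 1 the clenbuterol difference was 1.46-fold, so Smox crossed the 1.5-fold line in CPM and not in TPM. The libraries titled as controls also differed in Smox, with a fold of 1.32 (1.17 to 1.48) for titled EPS control over the control for clenbuterol. Gm30679, which overlaps Smox on the opposite strand, reached at most 0.0533 TPM.

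Sat1 (gene ID 20229, chrX:155213126-155216449 on mm10, minus strand), which acetylates spermidine and spermine and so marks them for export or oxidation, behaved otherwise. It stood at 137 TPM (2697 counts) with clenbuterol, against 143 TPM (2809 counts) in its control. It stood at 151 TPM (3421 counts) in titled EPS, against 114 TPM (2107 counts) in titled EPS control. Titled EPS control was the lowest library, and the other 3 lay within 137 to 151 TPM. The fold was 0.988 (0.937 to 1.04) for clenbuterol and 1.47 (1.39 to 1.55) for titled EPS, the widest EPS difference of the 9 genes. Sat1 over Smox in TPM was 5.60 with clenbuterol and 8.73 in its control, and 8.08 in titled EPS and 4.92 in titled EPS control.

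Sat1 gave different EPS ratios by counts and by TPM. In TPM plus 1 the difference was 1.33-fold, against 1.47-fold in CPM. Dividing counts by FPKM gives a value that follows the transcript length the authors' program assigned, and for Sat1 this was 106.4% of the 4-library median in titled EPS, against 99.1% in titled EPS control. It was 100.9% with clenbuterol, against 99.1% in its control. The range of 7.35 percentage points was reached by 9.28% of 8075 genes with at least 500 counts in all 4 libraries. Smox spanned 6.16 points, from 97.1% in titled EPS control to 103.3% with clenbuterol, Azin1 spanned 1.48 points and the other 6 genes spanned at most 0.180. GENCODE M21 lists 7 Sat1 transcripts: 2 protein-coding forms of 1162 and 896 bases, 1 nonsense-mediated decay form of 1272 bases and 4 retained-intron forms. Values per transcript were not analysed here, and whether the forms changed was not tested.

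**Figure D2:**
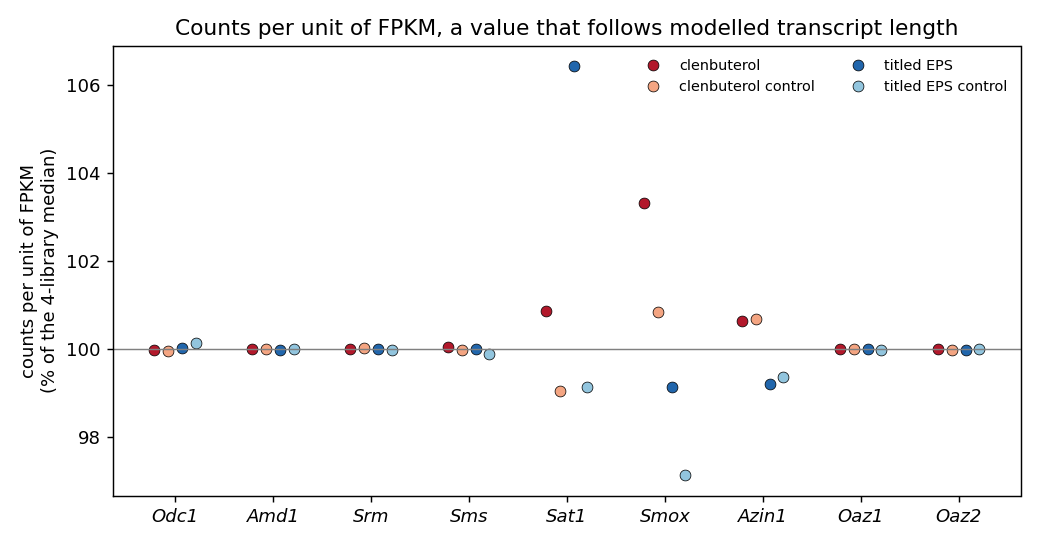
Points give counts per unit of FPKM for each gene and library, as a percentage of the gene's median over the 4 libraries; the axis does not start at 0. Sat1 in titled EPS stands at 106.4%, Smox spreads from 97.1% to 103.3%, and 6 genes lie within 0.180 percentage points.

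The antizymes, which take ornithine decarboxylase to the proteasome and need the frameshift shown above for their full-length form, varied little. Oaz1 (gene ID 18245, chr10:80826656-80829290 on mm10, plus strand) stood at 676 TPM (10413 counts) with clenbuterol, against 658 TPM (10277 counts) in its control. It stood at 638 TPM (10698 counts) in titled EPS, against 624 TPM (9205 counts) in titled EPS control. The folds were 1.04 (1.01 to 1.07) and 1.05 (1.02 to 1.08), so the intervals excluded 1 at a difference of a few percent. Oaz1 shared 680 of 685 aligned bases (99.3%) with the pseudogene Oaz1-ps, which stood at 89.2 to 100.5 TPM, and summing the pair gave 1.04 (1.02 to 1.07) and 1.05 (1.02 to 1.08). The microRNA gene Mir1982 lies within Oaz1 on the same strand and was listed at 6.75 to 13.3 TPM.

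Oaz2 (gene ID 18247, chr9:65676548-65690300 on mm10, plus strand) is another broadly expressed antizyme. It stood at 112 TPM (2971 counts) with clenbuterol, against 101 TPM (2698 counts) in its control. It stood at 104 TPM in titled EPS, against 101 TPM in titled EPS control. The clenbuterol library was the highest and the other 3 lay within 101 to 104 TPM. The folds were 1.13 (1.08 to 1.19) for clenbuterol and 1.06 (1.01 to 1.12) for titled EPS. Oaz1 plus Oaz2 over Odc1 in TPM was 4.12 with clenbuterol and 4.48 in its control, and 4.87 in titled EPS and 4.62 in titled EPS control. Antizyme RNA thus exceeded Odc1 RNA in each library.

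Azin1 (gene ID 54375, chr15:38487430-38519294 on mm10, minus strand) resembles ornithine decarboxylase but lacks its activity, and it binds antizyme in its place. It stood at 116 TPM (7818 counts) with clenbuterol, against 117 TPM (8049 counts) in its control. It stood at 113 TPM in titled EPS, against 110.1 TPM in titled EPS control. The folds were 1.00 (0.969 to 1.03) and 1.05 (1.02 to 1.09). Oaz1 over Azin1 in TPM was 5.85 with clenbuterol and 5.61 in its control, and 5.64 in titled EPS and 5.67 in titled EPS control. The microRNA gene Mir6951 lies within Azin1 on the same strand, at 0.221 to 1.11 TPM.

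For the 9 genes as a set, counts past the line are given beside the shares over all genes. With shares this low, a count of 0 or 1 of 9 says little about the set. With clenbuterol, 0 of 9 passed 1.5-fold in TPM plus 1, against 4.44% of all 13788 genes tested, and 0 passed 2-fold, against 1.52%. In CPM 1 of 9 passed (Smox), against 6.85% of those genes and 1.68% of the 9185 genes with a TPM of at least 10. Intervals lay above 1 for 4 of 9 (Odc1, Smox, Oaz1 and Oaz2) and below 1 for 0, against 21.6% and 14.2% of those 9185 genes. The median log2 ratio was 0.04 for the 9 genes and -0.01 for all genes tested, with 6 above 0 and 3 below.

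For titled EPS over titled EPS control, 0 of 9 passed 1.5-fold in TPM plus 1, against 6.58% of 13828 genes, and 0 passed 2-fold, against 2.01%. In CPM 0 of 9 passed, against 9.63%. Intervals lay above 1 for 5 of 9 (Srm, Sat1, Azin1, Oaz1 and Oaz2) and below 1 for 2 (Sms and Smox), against 31.1% and 28.4% of 9431 genes with a TPM of at least 10. The median log2 ratio was 0.03, against -0.02 for all genes tested, with 5 above 0 and 4 below. Summed synthesis RNA over summed breakdown RNA in TPM was 1.94 with clenbuterol and 1.82 in its control, and 1.70 in titled EPS and 2.14 in titled EPS control. Sat1 was the larger term of the breakdown sum in each library.

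**Figure D3:**
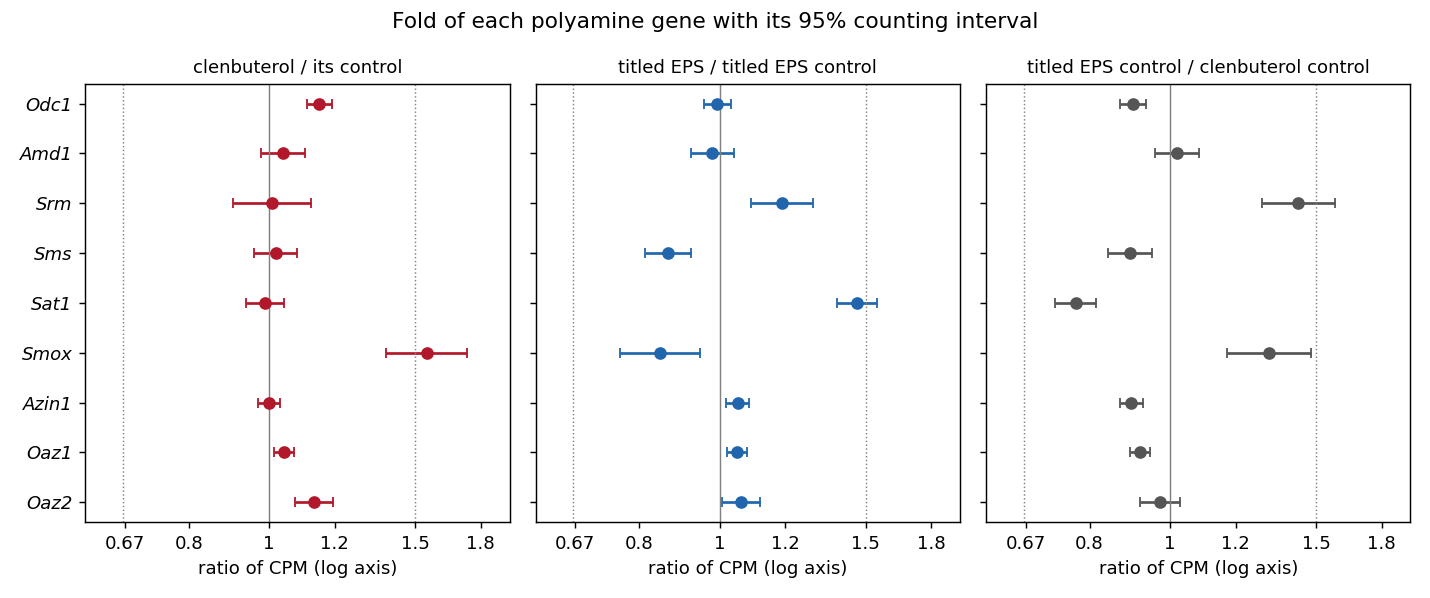
Points give the CPM fold of each gene on a log axis for clenbuterol, titled EPS and the control of EPS over the control of clenbuterol; bars are 95% intervals for counting error, and dotted lines mark 1.5-fold in each direction. Smox lies at 1.55 with clenbuterol, Sat1 at 1.47 in titled EPS, and Srm at 1.43 and Smox at 1.32 between the libraries titled as controls.

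The libraries titled as controls belong to different treatment pairs, and the labels do not say whether these pairs were cultured apart. If the data names are right, the library titled EPS control is the stimulated one, and this is then EPS over a control from the other pair. This comparison uses 1 library of each treatment comparison, so its values stand beside theirs and are not independent of them. For titled EPS control over the control for clenbuterol, 0 of 9 genes passed 1.5-fold in TPM plus 1, against 11.3% of 13880 genes. Intervals nevertheless lay above 1 for 2 of 9 (Srm and Smox) and below 1 for 5 (Odc1, Sms, Sat1, Azin1 and Oaz1), against 33.2% and 35.6% of the 9460 genes with a TPM of at least 10. Srm had a fold of 1.43 (1.29 to 1.58), Smox 1.32 (1.17 to 1.48) and Sat1 0.770 (0.728 to 0.815). Odc1 had a fold of 0.902 (0.870 to 0.936), against 1.15 for clenbuterol. By title these are differences between controls; by data name they are not.

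Srm separated the EPS pair from the clenbuterol pair more than it separated either treatment from its control. For titled EPS over the control for clenbuterol, Srm had a fold of 1.70 (1.54 to 1.87) and was the 1 of 9 genes past 1.5-fold in TPM plus 1, against 12.3% of 13829 genes. Sms had a fold of 0.776 (0.730 to 0.826) in that comparison. If the data names of the EPS pair are right, this library is the control of EPS, and a spermidine synthase difference between controls would pass the line. Of the 12 myotube markers, 10 were lower in both libraries of the EPS pair than in both of the clenbuterol pair, and Acta1 and Actn2 were not, being highest in titled EPS control. Within the EPS pair, 4 of the 12 passed the line as lower in titled EPS (Myh3, Myh8, Actn2 and Acta1) and 0 as higher. The shares over all 13828 genes tested were 4.24% lower and 2.34% higher. Of the 6 genes of undifferentiated or dividing myoblasts, 4 (Myf5, Mki67, Top2a and Ccnb1) were higher in both libraries of the EPS pair, Id3 was lower in both, and Pax7 did not split by pair. The part of these lists in the Srm values was not tested.

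By closeness of their centred log2 values of TPM plus 1 over the 4 libraries, the genes nearest Srm among 10455 were Slc8a1, Rad51ap1, Anln, Bub1 and Hmmr, at root mean square differences of 0.016 to 0.027. Anln, which encodes the actin-binding protein anillin, stood at 44.7 TPM with clenbuterol and 45.6 in its control, and at 77.1 in titled EPS and 64.6 in titled EPS control. A total of 192 genes lay within 0.1 of Srm. The genes nearest Odc1 were Trak1, Got1, Nuak1, Pdpn and Gcsh, at 0.0094 to 0.012, and 1365 genes lay within 0.1 of it. Fewer genes were thus this close to Srm than to Odc1, and with 4 libraries such closeness describes these libraries only.

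Outside the 9 genes, 52 others that feed, move, use or regulate polyamines were examined, of which 38 passed the filter. With clenbuterol 0 of the 38 were higher and 1 lower, against 2.52% and 1.92% of all genes, at a median log2 ratio of -0.00. The lower gene was Sat2, a relative of Sat1, at 9.16 TPM (136 counts) with clenbuterol, against 14.9 TPM (222 counts) in its control. Its fold was 0.631 (0.506 to 0.784). For Sat2 the control for clenbuterol stood apart, since titled EPS lay at 8.32 TPM and titled EPS control at 7.14 TPM. The Sat2 call was lost under 5 of 8 alternatives, each with a pseudocount of 1 or 5 added. The CPM ratio of 0.631, with none added, is past the line. In titled EPS 0 were higher and 2 lower, against 2.34% and 4.24% of all genes, at a median of -0.02. Slc7a2, a transporter of arginine and ornithine, stood at 10.8 TPM in titled EPS, against 25.4 TPM in titled EPS control, a fold of 0.443 (0.415 to 0.474). Nqo1, a quinone reductase induced through antioxidant elements that stabilises ornithine decarboxylase, stood at 9.34 TPM in titled EPS, against 27.5 TPM in titled EPS control, a fold of 0.349 (0.298 to 0.407). For Slc7a2 and Nqo1 titled EPS control stood apart, since the clenbuterol pair lay at 11.6 and 10.6 TPM for Slc7a2 and at 11.7 and 13.8 TPM for Nqo1. For titled EPS control over the control for clenbuterol, 6 of the 52 genes passed the filter and the line, in either direction. The share over all 13880 genes tested in that comparison was 11.3%.

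**Figure D4:**
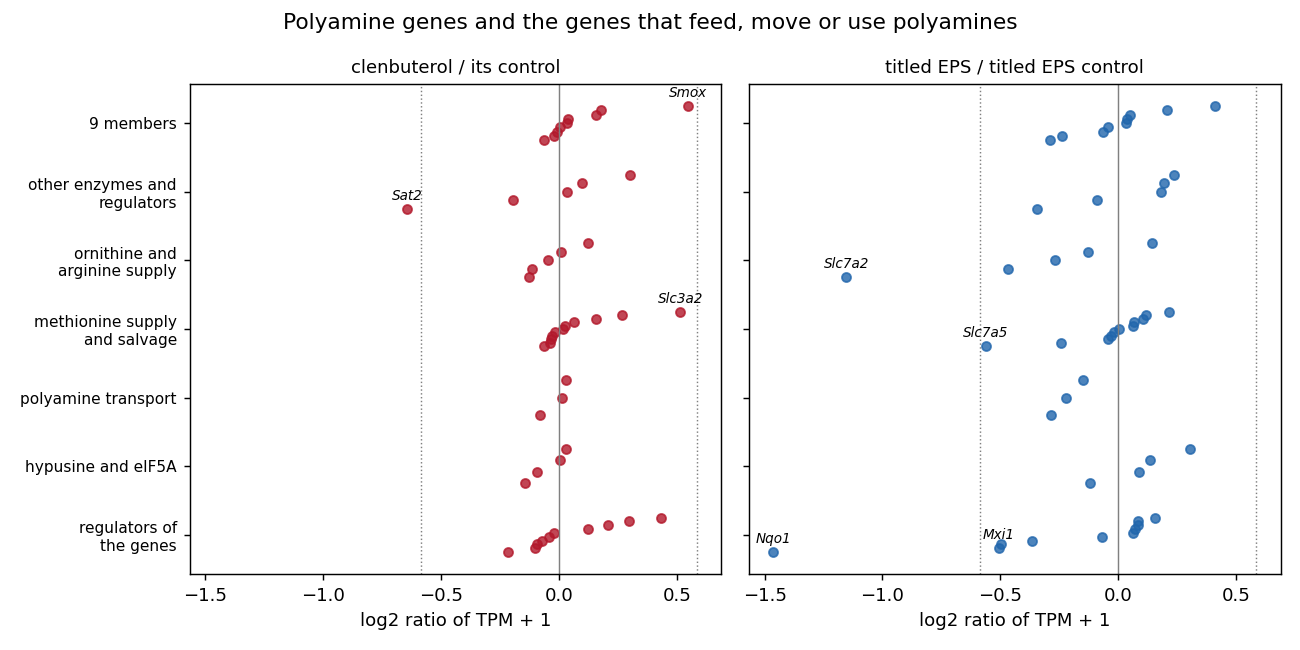
Points give the log2 ratio of TPM plus 1 of each gene that passed the filter, by list, for clenbuterol and for titled EPS; dotted lines mark 1.5-fold. Points cluster around 0, with Sat2 at -0.64 with clenbuterol and Nqo1 at -1.46 and Slc7a2 at -1.15 in titled EPS.

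Most lists held both signs. Of methionine supply, which provides S-adenosylmethionine, 11 of 12 genes passed the filter and 0 were called in either pair. Slc3a2, the heavy chain of the large neutral amino acid transporter, was its highest gene with clenbuterol. It stood at 252 TPM, against 176 TPM in its control, a fold of 1.43 (1.38 to 1.47). With 195 TPM in titled EPS and 231 TPM in titled EPS control, the control for clenbuterol was the lowest library for Slc3a2. Slc7a5, the partner of Slc3a2, was the lowest gene of that list in titled EPS. It stood at 153 TPM, against 226 TPM in titled EPS control, a fold of 0.694 (0.675 to 0.714). Titled EPS control stood apart for Slc7a5, since the clenbuterol pair lay at 173 and 155 TPM. The other ends of this list were Mat2b, the regulatory subunit of methionine adenosyltransferase, at a log2 ratio of -0.06 with clenbuterol, and Apip of the methionine salvage route at 0.22 in titled EPS.

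Ornithine and arginine supply had 5 of 8 genes past the filter, with Slc7a2 highest at 0.12 and the mitochondrial ornithine carrier Slc25a15 lowest at -0.13 on the log2 scale with clenbuterol. In titled EPS its highest gene was Oat, ornithine aminotransferase, at 0.14. Arg2, an arginase that makes ornithine, was listed at 0 in all 4 libraries, and Arg1 reached at most 0.899 TPM. Among the other polyamine enzymes and regulators, 5 of 7 passed, and Azin2, the second antizyme inhibitor, was the highest with clenbuterol at 0.30 and the lowest in titled EPS at -0.35. Agmat, which is related to agmatinases that make putrescine from agmatine, was the highest in titled EPS at 0.24, from 4.01 TPM in titled EPS and 3.25 TPM in titled EPS control. Oaz3, an antizyme of the testis, was listed at 0 in all 4 libraries.

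Of the transport list 3 of 9 passed the filter, all within 0.09 of 0 on the log2 scale with clenbuterol, from Atp13a2 at -0.08 to Atp13a3 at 0.03. Both are P-type ATPases that carry polyamines. In titled EPS all 3 were below 0, from Slc18b1, a vesicular polyamine transporter, at -0.15 to Atp13a2 at -0.29. The hypusine list, for the spermidine-derived residue of eIF5A, passed with 4 of 4 genes. Eif5a was its highest gene with clenbuterol at 0.03 and its lowest in titled EPS at -0.12, and Eif5a2 was its lowest with clenbuterol at -0.14 and its highest in titled EPS at 0.30. Among regulators 10 of 12 passed. Nfe2l2, the factor that binds antioxidant elements, was the highest with clenbuterol at 162 TPM, against 120 TPM in its control, a fold of 1.37 (1.31 to 1.42). Nqo1 was the lowest with clenbuterol, at -0.22 on the log2 scale. In titled EPS Mxd1, a MYC antagonist, was the highest at 0.16. Myc, a known activator of Odc1, was picked after its values were seen. It stood at 53.5 TPM with clenbuterol, against 43.4 TPM in its control, a fold of 1.25 (1.17 to 1.34). In titled EPS Myc stood at 53.5 TPM, against 50.4 TPM in titled EPS control. The control for clenbuterol was thus the lowest library for Myc, whereas Odc1 was lowest in the EPS pair. A link between Myc and Odc1 was not tested.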

How the data were processed

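RNA sequencing of 4 C2C12 myotube libraries, 1 per group, was used. Reads were aligned with HISAT2 to mm10, per the submitters' processing notes; the version was not named. The authors deposited a table of estimated counts, FPKM and TPM per gene, and per library a table of coverage (a signal, mean read depth per base), FPKM and TPM. What program made these values, with which annotation release and strand setting, was not stated in the sources used here. Counts were treated as estimates, and if mates were counted singly the intervals are too narrow. Deposited TPM differed by more than 0.001 between the joint and single tables in 1 to 3 genes per library. Dates in place of 26 gene symbols were turned back by gene ID.

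Ratios were taken on log2(TPM + 1), for genes reaching 1 TPM in either library of a pair. CPM used TMM factors (edgeR 4.0.16, R 4.3.3). Intervals, motifs and alignments used Python 3.11.15, numpy 2.4.6, pandas 2.3.3, scipy 1.17.1 and Biopython 1.88, and plots matplotlib 3.10.9. The code was tested on simulated counts. Nothing in the labels says whether the libraries came from separate cultures, and no p-value or spread between cultures is given. Alternatives were pseudocounts of 0.1 and 5, FPKM, plain CPM, TMM-scaled CPM and median-of-ratios scaling (pseudocount of 1 each), no filter and a filter of 5 TPM.

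Named genes are the 9 members, pathway genes past 1.5-fold, the highest and lowest gene of each list in each treatment pair, the 5 genes nearest Odc1 and the 5 nearest the member of widest range, near copies, overlapping genes, and Nr4a1 and Pde4b. Named outside this rule, after their values were seen, were Myc, the unexpressed Arg1, Arg2 and Oaz3, and single cell type markers. Members and lists were chosen with earlier results of these data known.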

Additional observations from a re-analysis of the deposited data

Results flagged for a closer look

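Smox, spermine oxidase, was picked out because its libraries differed in opposite directions in the 2 treatment pairs. Its CPM fold was 1.55 for clenbuterol over its control and 0.848 for titled EPS over titled EPS control. Each direction rests on 1 library against 1, the difference between the pairs was not tested, and under the data names of the EPS pair both folds would lie above 1.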

How the results depend on the processing

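No paired analysis was possible because each group holds 1 library, and for the same reason no library could be left out in turn. With clenbuterol the count of the 9 genes past 1.5-fold was 0 in TPM plus 1 and 1 under TMM-scaled CPM and under median-of-ratios scaling, each with a pseudocount of 1, Smox being the gene. The count of other pathway genes past the line with clenbuterol was 1 (Sat2) in TPM plus 1 and 0 under a pseudocount of 5 on TPM and under FPKM, plain CPM, TMM-scaled CPM and median-of-ratios scaling with a pseudocount of 1; without one, its TMM-scaled CPM ratio of 0.631 passes the line. In the EPS pair the count of the 9 genes stayed at 0 under all 8 alternatives, and in the comparison of controls likewise. Of 72 log2 ratios of single genes per comparison, 67 with clenbuterol, 70 in the EPS pair and 68 between controls kept their sign. In the same order, 72, 63 and 65 lay within a counting interval around the main value in TPM plus 1. That interval was not the one printed with the CPM folds. Sat1 in titled EPS, at 0.54 under TMM-scaled CPM with a pseudocount of 1, was counted outside it. In titled EPS, Sat1 stood at 0.41 on the log2 scale in TPM plus 1 and 0.57 in plain CPM. Taking the EPS pair by its data names turned the sign of 9 of 9 ratios, with a median of -0.03 in place of 0.03. Counting error limits Smox and Srm most, which had 519 to 781 and 657 to 1228 counts per library.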
